A study of Mus musculus with 6 samples.

Results

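The endoplasmic reticulum (ER) chaperones and the genes of the unfolded protein response were followed in activated mouse CD8+ T cells given TVA (trans-vaccenic acid, which occurs in the milk and meat of ruminants). The group comprised 32 genes taken by symbol from a list of ER folding, quality control and transport genes, and all 32 were present in the table of 24589 genes. Of these, 31 reached a transcript level of at least 1 TPM (a transcript level scaled to the same total in every library) in at least 3 libraries and were tested, while Derl3 did not.

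Both groups were wild-type primary CD8+ T cells, activated through CD3 and CD28 in Click's medium and then cultured for 24 h. One group received 20 µM TVA (3 libraries) and the other DMSO, the solvent control (3 libraries). By the study's methods, CD8+ T cells were purified with magnetic beads from spleen and lymph nodes of C57BL/6 mice, and the study used adult mice of both sexes. The age and sex behind each library are not given in the sources used here. The labels do not say whether libraries came from separate animals or cultures, so p-values measure only the spread between these libraries, which may be technical.

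The ER is where secreted and membrane proteins are threaded through the Sec61 channel, glycosylated, folded by chaperones and oxidized by disulfide isomerases. Proteins that fail to fold are sent back to the cytosol for destruction, a route known as ER-associated degradation (ERAD). When unfolded proteins accumulate, the sensors IRE1 (Ern1), PERK (Eif2ak3) and ATF6 are activated. IRE1 splices the mRNA of the transcription factor XBP1, PERK lowers translation, and ATF6 is cut to release a transcription factor, which together raise chaperone and ERAD genes. Activated cytotoxic T cells make large amounts of surface receptors, cytokines and granule proteins, and this system serves that load.

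Several of these genes share a promoter element named for the ER stress response. The members were chosen as ER chaperone and stress response genes, so the shares below are a description and no test. RefSeq promoter windows (GRCm38.p6, 250 bases before to 50 after the start) were found for 27 members. The ER stress response element (ERSE), read as CCAAT and CCACG separated by 9 bases on either strand, was in the windows of 9 of the 27 (33.3%) and of 37 of 27025 genes (0.137%). A shorter form, ERSE-II (ATTGG and CCACG separated by 1 base), was in 2 members, Herpud1 and Dnajb11 (7.41%, against 0.0444% of genes). The UPRE core TGACGTGG was in 1 member, Sec24d (3.7%, against 0.714%). The cAMP response element TGACGTCA was in 0 of the 27 windows and in 2.03% of genes. The letters CCACG also lie within ERSE, ERSE-II and, on the other strand, the UPRE core. On their own, they were in 85.2% of the members and 35.5% of genes. A match describes the letters in a window and not a site in use.

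Matched stretches are shown for 7 members, in the direction of transcription, because they let the chaperone genes be compared base by base. Capitals mark the matched letters. The Hspa5 stretch lies at chr2:34772015-34772053 (+ strand), Hsp90b1 at chr10:86705523-86705666 (−), Canx at chr11:50325790-50325828 (−), Calr at chr8:84847065-84847103 (−), Pdia6 at chr12:17266481-17266519 (+), Creld2 at chr15:88819510-88819548 (+) and Herpud1, with ERSE-II, at chr8:94386367-94386397 (+).
Hspa5: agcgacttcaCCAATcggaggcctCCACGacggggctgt
Hsp90b1: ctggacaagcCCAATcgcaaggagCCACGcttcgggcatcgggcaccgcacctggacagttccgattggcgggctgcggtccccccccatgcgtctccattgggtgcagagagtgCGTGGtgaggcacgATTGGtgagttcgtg
Canx: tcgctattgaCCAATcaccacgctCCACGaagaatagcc
Calr: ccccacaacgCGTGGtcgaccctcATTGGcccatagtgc
Pdia6: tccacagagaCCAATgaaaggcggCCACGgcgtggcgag
Creld2: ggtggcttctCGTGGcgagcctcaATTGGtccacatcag
Herpud1: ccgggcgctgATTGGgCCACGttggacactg

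Hspa5, Canx and Pdia6 carry the element in the forward direction, Calr and Creld2 on the other strand, and Hsp90b1 holds both a forward and a reverse copy. Dnajc3, Syvn1 and Derl3 are the remaining genes with ERSE.

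The DMSO libraries differed in how near they were to the TVA libraries. DMSO replicate 2 correlated at 0.9957 to 0.9964 with the TVA libraries and at 0.9929 and 0.9945 with the other DMSO libraries (Pearson, log2(TPM + 1), across genes, which are not replicates). DMSO replicate 1 had the lowest correlations with the TVA libraries, 0.9894 to 0.9904, and correlated at 0.9958 with DMSO replicate 3. Which DMSO library departed from the others was not tested. The CD8 T cell markers were present at 4676 to 5006 TPM in total with DMSO and 4981 to 5081 TPM with TVA (7 of 8 markers listed), with 62.9% of the sum from Gzmb. Of these 7, Cd3g was called higher with TVA (1.22-fold, limma adjusted p 0.0063), and Cd3d, Cd3e and Cd8a were also above every DMSO library in every TVA library without passing. Of the 7 myeloid markers, 2 were called higher with TVA (Lyz2 and Tyrobp). All 7 were above every DMSO library in every TVA library, as were 27.3% of all genes tested. Their sum was 45.8 to 51.1 TPM with DMSO and 64.7 to 68.2 TPM with TVA. The 8 B cell and plasma cell markers summed to 18.3 to 21.5 TPM with DMSO and 15.5 to 16.6 TPM with TVA, with 5 of them under 1 TPM in every library, Jchain and Mzb1 included. No marker on any of these lists was at 0 in all 6 libraries. The CD4 T cell markers (3 genes, 1 called lower) summed to 9.28 to 10.1 TPM with DMSO and 7.55 to 8.31 TPM with TVA, the NK cell markers (3 genes, 1 called higher, Eomes, which CD8 T cells also express) to 21.3 to 23.9 and 32.5 to 33.1 TPM, and the red cell markers (3 genes) to 11.5 to 24.8 and 7.27 to 20.5 TPM. The part of other cells in the values below was not tested. In such bulk libraries, fewer cells of a type and less RNA per cell cannot be told apart.

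The group as a whole was abundant and nearly level between the conditions. The 32 genes summed to 4951, 5043 and 5090 TPM across DMSO replicates 1, 2 and 3, against 5079, 5163 and 5123 TPM across TVA replicates 1, 2 and 3, or 0.495% to 0.516% of all transcripts. With limma, 1 of the 31 genes tested rose with TVA and 0 fell at an adjusted p under 0.05, against 5.28% of all 10866 genes called higher and 3.23% called lower. The counts by role given further below come from short lists and are descriptions. The background of all genes was 574 higher and 351 lower. It turned to 270 and 492 with median-of-ratios scaling and to 357 and 418 with quantile scaling, under which 0 members were called. At an unadjusted p under 0.05 there were 8 members (25.8%), beside 31.8% of all genes tested. The median log2 change of the members was 0.03, beside 0.04 for all genes tested, and 19 of 31 changes were positive (61.3%, beside 61.5% of all genes). The ratio of the mean TPM with TVA to that with DMSO ran from 0.816 to 1.11 over these members. The TVA libraries lay above every DMSO library for 10 members (32.3%, beside 27.3% of all genes) and below every DMSO library for 3 (9.68%, beside 11.2%).

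The intervals of the differences were narrow on the log2(TPM + 1) scale. This scale understates changes of low genes such as Ern1, so the folds below are not folds of TPM for them. For all 31 members the 95% interval of the log2 change lay inside a 1.5-fold change in either direction, which held for 94.3% of all genes tested. For 29 of 31 (93.5%) it lay inside 1.25-fold on this scale, beside 73.5% of all genes, and the exceptions were Sdf2l1 and Dnajb9. For 5 members, namely Calr, Pdia3, Pdia6, Xbp1 and Edem1, it lay inside 1.1-fold (16.1%, beside 8.94% of all genes). The members were more abundant, 29 of 31 averaging at least 10 TPM, beside 7563 of 10866 genes. The part of transcript level in these shares was not tested.

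**Figure D1:**
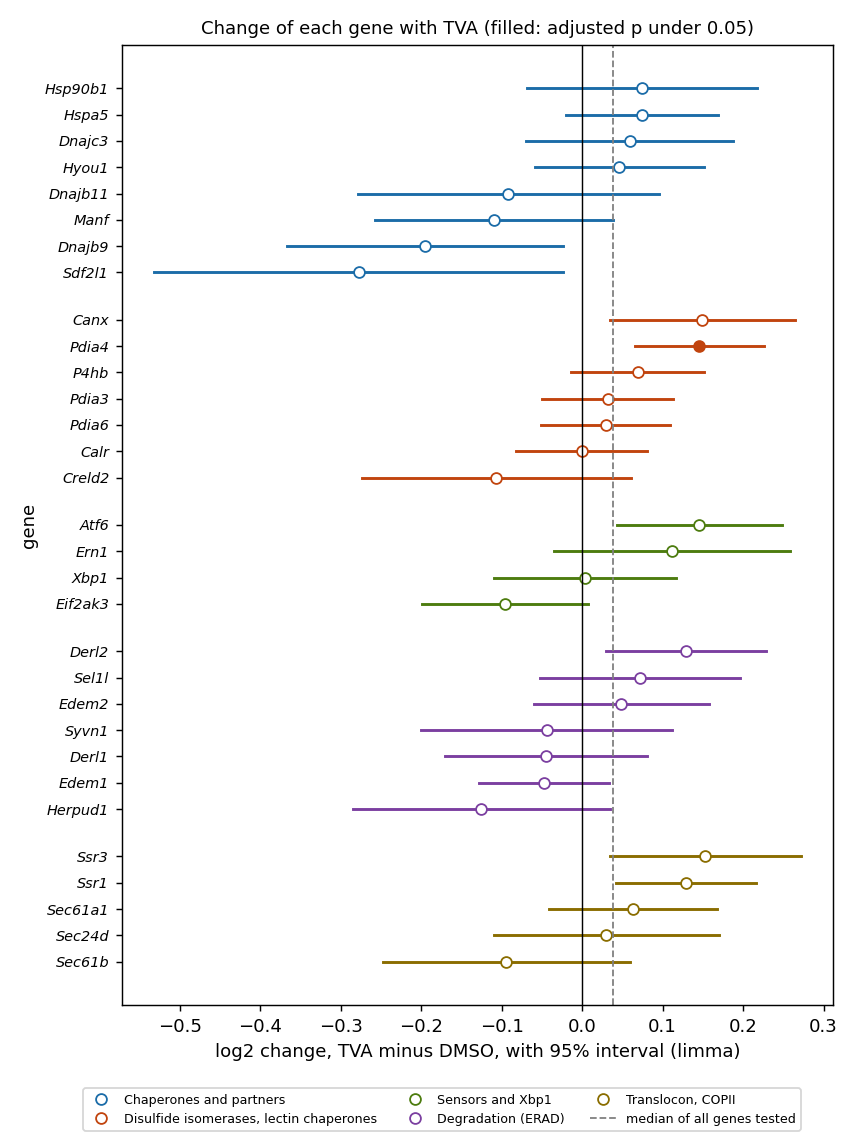
Log2 change with TVA (x axis, TVA minus DMSO on the log2(TPM + 1) scale) for each of the 31 genes tested (y axis), grouped and coloured by role; points are limma estimates from 3 libraries per group, bars their 95% intervals, and the dashed line the median of all 10866 genes. Only Pdia4 is filled (adjusted p 0.045), and most intervals cross 0.

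Hspa5 and Hsp90b1 were, with Calr, the 3 most abundant members, and none of the 8 genes of the Hsp70-type chaperones and their partners was called in either direction. Hspa5 encodes BiP, the ER HSP70 that binds unfolded chains and holds the stress sensors inactive. It had 615, 661 and 653 TPM across DMSO replicates 1, 2 and 3, against 665, 680 and 686 TPM across TVA replicates 1, 2 and 3. The TVA libraries were all higher, the lowest of them lying close to the highest DMSO library, with a log2 difference of 0.07 (SE 0.041, 95% interval −0.02 to 0.17, limma adjusted p 0.24). Hsp90b1, the gene of the ER HSP90 called GRP94, had 439, 517 and 489 TPM under DMSO against 491, 515 and 513 TPM under TVA. Its groups overlapped (log2 difference 0.08, SE 0.061, limma adjusted p 0.42). Hyou1, a nucleotide exchange factor of BiP, had 93.5 ± 4.94 TPM (SD, n = 3) under DMSO against 96.5 ± 0.955 TPM under TVA, and Dnajc3, a co-chaperone that inhibits PERK, 39.1 ± 2.83 and 40.7 ± 0.749 TPM. Their groups overlapped.

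Among the smaller partners of BiP were Sdf2l1 and Dnajb9, which had the most negative log2 changes of the 31 members, and neither passed the threshold. Sdf2l1, part of an ER co-chaperone complex, had 101, 72.8 and 92.5 TPM across DMSO replicates 1, 2 and 3, against 70.98, 70.6 and 76.03 TPM across TVA replicates 1, 2 and 3. DMSO replicate 2 lay within the TVA range and the others lay above it. The log2 change was −0.28 (SE 0.11, 95% interval −0.53 to −0.02, limma adjusted p 0.13). Manf, a secreted BiP partner, had 93.3, 79.7 and 91.7 TPM under DMSO against 82.1, 83.8 and 78.7 TPM under TVA. Dnajb11, a J-domain co-chaperone, had 67.9, 55.9 and 69.3 TPM in the DMSO libraries, compared with 59.8, 62.4 and 58.1 TPM after TVA. As for Sdf2l1, DMSO replicates 1 and 3 were above all TVA libraries in both genes while DMSO replicate 2 was not (log2 changes −0.11 and −0.09, limma adjusted p 0.27 and 0.46).

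Without DMSO replicate 2, these 3 genes passed as lower with TVA. DMSO replicate 2 was the DMSO library nearest to the TVA libraries in these genes. Leaving it out therefore widens the differences by construction, and the passes decide nothing. The log2 changes were then −0.41 for Sdf2l1 (SE 0.055, limma adjusted p 0.0034), −0.19 for Dnajb11 (0.028) and −0.18 for Manf (0.027), and Pdia4, Canx and Ssr3 passed as higher. In that fit the background was also larger, with 11.3% of all genes called higher and 9.38% lower, next to 3 of 31 members in each direction. Over the fits that left out another library, the limma adjusted p ran up to 0.32 for Sdf2l1, 0.80 for Dnajb11 and 0.53 for Manf. The weakest log2 changes there were −0.18, −0.036 and −0.068.

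Dnajb9, also named ERdj4, is a J-domain protein induced by XBP1 that restrains IRE1. It had 20.4, 19.9 and 22.9 TPM under DMSO against 16.8, 19.8 and 18.3 TPM under TVA. The groups just failed to overlap, with DMSO replicate 2 and TVA replicate 2 separated by a small margin. The log2 change was −0.20 (SE 0.074, 95% interval −0.37 to −0.02, limma adjusted p 0.12).

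**Figure D2:**
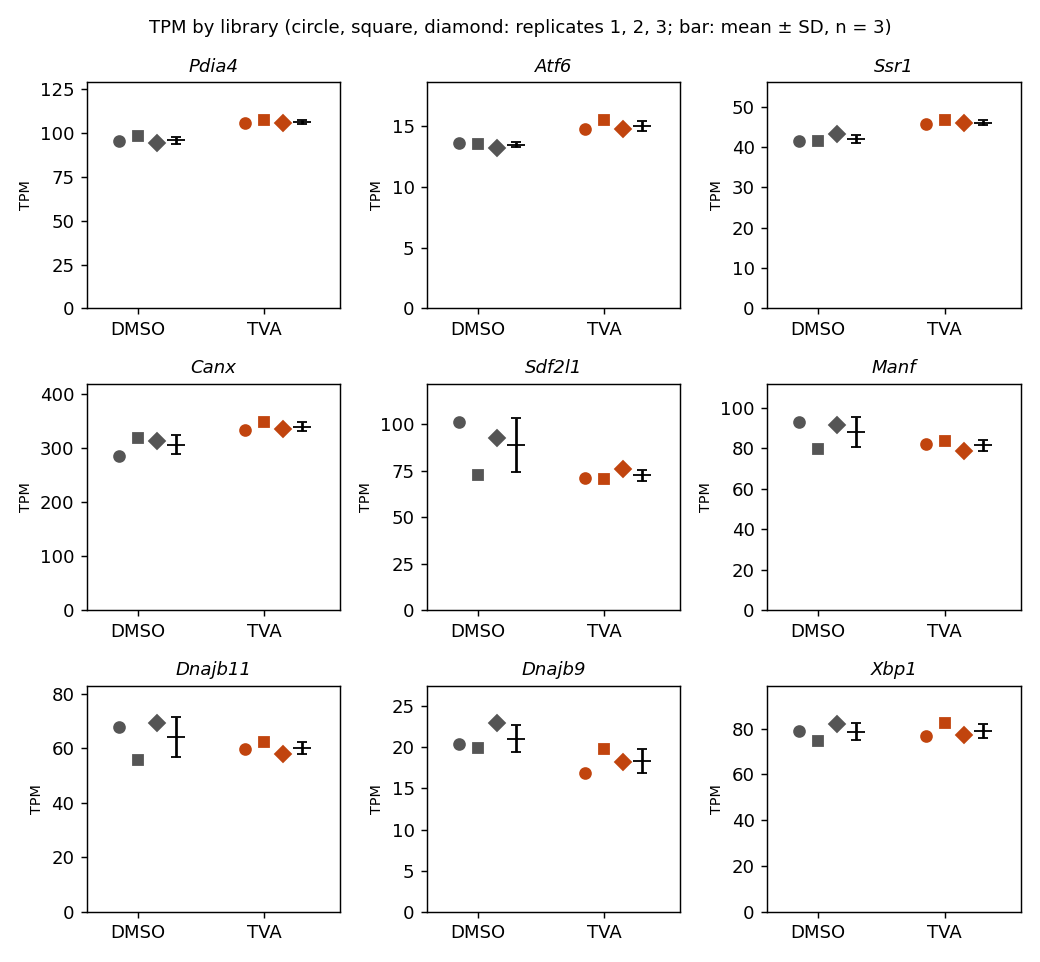
TPM (y axis, from 0) of 9 genes in each DMSO (grey) and TVA (orange) library; circle, square and diamond are replicates 1, 2 and 3, and the bar gives mean ± SD (n = 3). Pdia4, Atf6, Ssr1 and Canx sit slightly higher in every TVA library, while DMSO replicate 2 lies near or below the TVA libraries for Sdf2l1, Manf and Dnajb11.

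Of the disulfide isomerases and lectin chaperones, 1 of 7 rose (14.3%, beside 5.28% of all genes). Pdia4 (chr6:47796141-47813512, GRCm38.p6), an ER protein disulfide isomerase also known as ERp72, had 95.3, 98.2 and 94.6 TPM across DMSO replicates 1, 2 and 3, against 106, 108 and 106 TPM across TVA replicates 1, 2 and 3. All TVA libraries were above all DMSO libraries, and the gap between the groups was larger than the spread within either. It rose 1.11-fold, with a log2 difference of 0.15 (SE 0.035, 95% interval 0.07 to 0.23, limma adjusted p 0.045). Neither form of ERSE was in its promoter window. Pdia4 was called in 6 of 14 alternative fits. Among the fits that lost it were those with median-of-ratios scaling (adjusted p 0.10), with quantile scaling (0.069) and without the variance trend (0.067). With the replicate number as a block it was lost too (0.079). It was also lost without DMSO replicate 3 (0.091), TVA replicate 1 (0.12), TVA replicate 2 (0.19) or TVA replicate 3 (0.17), while the log2 change ran only from 0.11 to 0.16 over all alternatives.

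The other isomerases were not called. P4hb, the gene of the classical protein disulfide isomerase, had 371, 377 and 358 TPM in the DMSO libraries, compared with 384, 386 and 391 TPM after TVA, which did not overlap (log2 difference 0.07, SE 0.036, limma adjusted p 0.22). Pdia3, an isomerase that works with the lectin chaperones, had 397 ± 7.55 TPM (SD, n = 3) under DMSO against 406 ± 7.37 TPM under TVA, and Pdia6, which also regulates IRE1, had 204 ± 4.54 and 208 ± 1.98 TPM. Creld2, an ER stress-inducible protein with isomerase activity, had 65.4, 53.4 and 55.5 TPM in the DMSO libraries, compared with 53.4, 53.4 and 54.2 TPM after TVA. Its DMSO mean rested on DMSO replicate 1, the other libraries being nearly equal (log2 difference −0.11, SE 0.072, limma adjusted p 0.33).

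Calr and Canx encode calreticulin and calnexin, the soluble and the membrane-bound lectin that hold newly made glycoproteins during folding. Calr was the most abundant member, at 742, 775 and 749 TPM under DMSO against 753, 757 and 755 TPM under TVA. Its mean was almost the same in both groups, with a log2 difference of −0.00034 (SE 0.035, 95% interval −0.08 to 0.08, limma adjusted p 0.996). Canx had 286, 320 and 313 TPM in the DMSO libraries, compared with 334, 349 and 335 TPM after TVA. All TVA libraries were higher (log2 difference 0.15, SE 0.049, limma adjusted p 0.092). Without DMSO replicate 2, the DMSO library nearest to them, the adjusted p was 0.037. Without any other single library it was 0.095 to 0.29.

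The sensors Atf6, Eif2ak3 and Ern1 were low in level beside Xbp1, and none of these 4 genes passed the threshold. Atf6 had 13.6, 13.5 and 13.2 TPM under DMSO against 14.7, 15.5 and 14.7 TPM under TVA. Every TVA library was above every DMSO library (log2 difference 0.15, SE 0.044, 95% interval 0.04 to 0.25, limma adjusted p 0.075), and after a correction for GC content the log2 difference was 0.07 (0.23). Ern1, the gene of IRE1, was listed at 2.43, 2.65 and 2.62 TPM in the DMSO libraries, compared with 2.91, 2.77 and 2.88 TPM after TVA. It too did not overlap between the groups, at a log2 difference of 0.11 (SE 0.063, limma adjusted p 0.26) that is understated at so low a level. Eif2ak3, the gene of PERK, lay the other way, at 14.6, 14.4 and 13.8 TPM under DMSO against 13.6, 13.2 and 13.1 TPM under TVA (log2 difference −0.10, SE 0.044, limma adjusted p 0.18). Xbp1 had 79.1, 74.8 and 82.1 TPM in the DMSO libraries, compared with 77.04, 82.4 and 77.1 TPM after TVA. These values overlapped throughout (log2 difference 0.0035, SE 0.049, 95% interval −0.11 to 0.12, limma adjusted p 0.97). The table gives one value per gene, so the spliced and unspliced Xbp1 transcripts were not told apart.

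None of the 7 ERAD genes tested was called, where 5.28% of all genes were called higher and 3.23% lower. In a list this short, such shares leave few or no calls. Herpud1, a membrane protein that organizes the ERAD complex, had 113, 93.4 and 98.7 TPM under DMSO against 95.7, 92.2 and 91.0 TPM under TVA, with DMSO replicate 1 standing above the rest (log2 difference −0.13, SE 0.069, limma adjusted p 0.25). Derl2, a derlin of the membrane channel through which misfolded proteins leave, had 18.8, 18.4 and 19.4 TPM in the DMSO libraries, compared with 21.1, 20.2 and 20.9 TPM after TVA. All TVA libraries were higher (log2 difference 0.13, SE 0.043, limma adjusted p 0.091). Derl1, its paralogue, had 65.8 ± 4.59 TPM (SD, n = 3) under DMSO against 63.7 ± 1.55 TPM under TVA, with overlap. Sel1l and Syvn1 encode the adaptor and the ubiquitin ligase (HRD1) of the same complex. Sel1l had 21.1 ± 1.37 and 22.2 ± 0.390 TPM and Syvn1 20.6 ± 2.02 and 19.9 ± 0.255 TPM, and neither was separated. Edem1 and Edem2, which mark glycoproteins for degradation, had 84.3 ± 1.44 and 81.5 ± 1.12 TPM and 25.6 ± 0.974 and 26.5 ± 0.868 TPM. Edem1 was below every DMSO library in every TVA library, by a narrow margin (log2 difference −0.05, SE 0.035, limma adjusted p 0.38). Derl3, a stress-induced derlin of secretory cells, was at 0.28 to 0.62 TPM with DMSO and 0.34 to 0.50 TPM with TVA and was not tested.

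Protein entry and exit genes were likewise not called. Ssr1 and Ssr3 encode subunits of the translocon-associated protein complex, which assists Sec61. Ssr1 had 41.5, 41.4 and 43.2 TPM in the DMSO libraries, compared with 45.6, 46.7 and 45.8 TPM after TVA (log2 difference 0.13, SE 0.038, limma adjusted p 0.068). Ssr3 had 168, 187 and 186 TPM under DMSO against 194, 206 and 201 TPM under TVA (log2 difference 0.15, SE 0.051, limma adjusted p 0.094). In both genes every TVA library was above every DMSO library. For Ssr3 the limma adjusted p was 0.046 without DMSO replicate 2, the DMSO library nearest to the TVA libraries. It was 0.10 to 0.29 without any other single library. Sec61a1, the pore of the channel, had 173, 171 and 157 TPM in the DMSO libraries, compared with 174, 176 and 175 TPM after TVA, which separated narrowly. Sec61b, another subunit, had 461, 451 and 534 TPM under DMSO against 463, 453 and 435 TPM under TVA and overlapped. Their log2 changes were 0.06 and −0.09 (limma adjusted p 0.35 for both). Sec24d, a cargo-binding subunit of the COPII coat, was low at 3.32 ± 0.162 TPM in the DMSO libraries, compared with 3.41 ± 0.0351 TPM after TVA.

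The 8 tested members with ERSE had log2 changes from −0.11 (Creld2) to 0.15 (Canx) with a median of 0.04, 5 of them positive. The other 23, here including those with no promoter window, ran from −0.28 (Sdf2l1) to 0.15 (Ssr3) with a median of 0.03, 14 of them positive. Neither group was tested against the other.

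The DMSO libraries differed among themselves more than the TVA libraries did. The SD of log2(TPM + 1) was larger in DMSO for 29 of 31 members (93.5%), beside 74.4% of all genes tested. Its median over the members was 0.075 in DMSO and 0.026 in TVA, where all genes had 0.081 and 0.043. The DMSO coefficient of variation was highest for Sdf2l1 (16.4%), Dnajb11 (11.5%), Creld2 (11.01%), Herpud1 (10.1%) and Syvn1 (9.81%) and lowest for Atf6 (1.53%), Edem1 (1.70%) and Pdia3 (1.90%). DMSO replicate 1 was the highest of all 6 libraries for 10 members, more than any other library, and DMSO replicate 3 the lowest for 9.

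**Figure D3:**
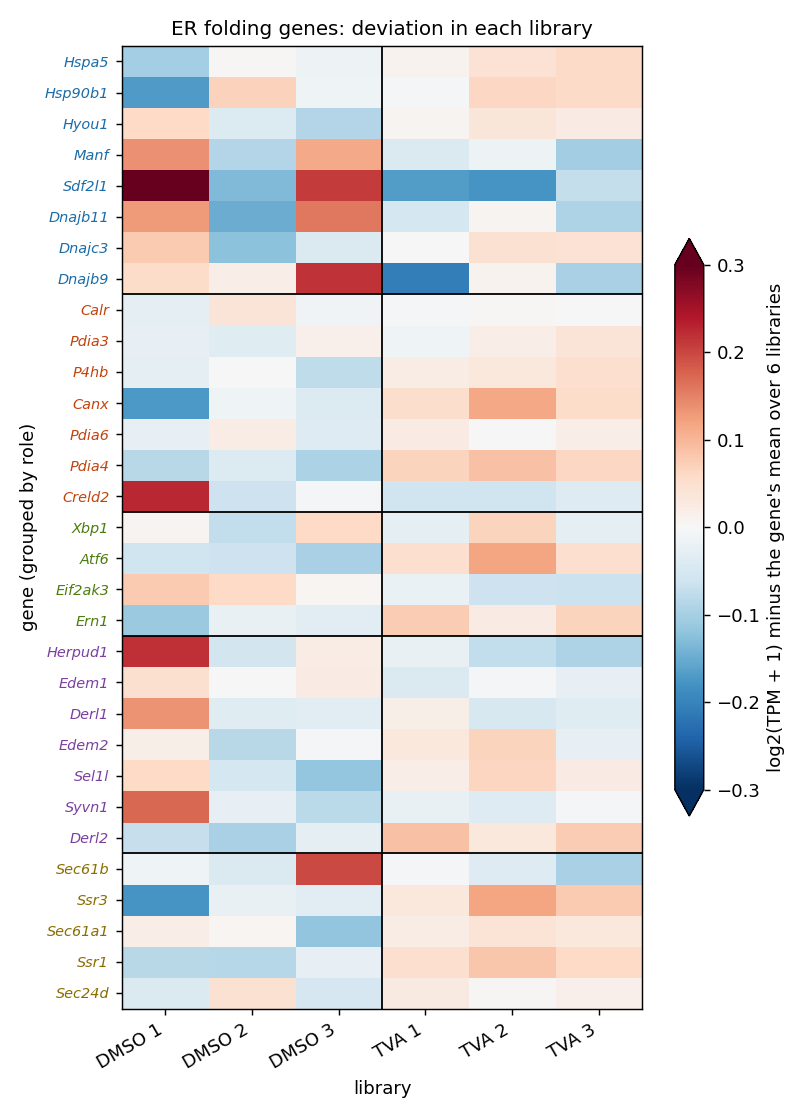
Deviation of log2(TPM + 1) from the gene's mean over the 6 libraries (colour, log2 units, values beyond ±0.3 share the end colour) for the 31 genes tested (rows, grouped by role) in each library (columns, DMSO left of the line and TVA right). Colours are strong in DMSO replicates 1 and 3 for Sdf2l1 and in DMSO replicate 1 for Creld2 and Herpud1, and most cells of the TVA columns are paler.

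Over all genes tested, the log2 change with TVA ran against the GC content of the transcripts (Spearman correlation −0.40). Over the 31 members it was −0.46 (a description, from points that share the same 6 libraries). Among libraries that share a treatment, DMSO replicate 1 minus replicate 3 correlated with GC at 0.62 across all genes. DMSO replicate 2 minus replicate 1 correlated with it at −0.50. In 5 GC bins of equal size, the median log2 change of all genes was 0.09 in the lowest and −0.06 in the highest. Ssr3 (39.8% GC) and Canx (42.3%) belonged to the lowest bin, Sdf2l1 (56.7%) to the highest, and Pdia4 (51.6%) to the middle bin, whose median was 0.04.

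After a loess correction for GC in each library, Pdia4 was still called (log2 difference 0.13, SE 0.031, limma adjusted p 0.043). Dnajb9, with a GC content of 45.1%, was then called as lower (log2 difference −0.26, SE 0.064, limma adjusted p 0.045). In the corrected data, 5.32% of all genes were called higher and 4.94% lower, next to 1 of 31 members in each direction. Of the 10 members above every DMSO library in every TVA library, 9 were nearer to 0 after the correction, the exception being P4hb (0.08). The corrected log2 changes were 0.07 for Canx, Atf6 and Derl2, 0.06 for Ssr3, 0.08 for Ssr1, 0.04 for Sec61a1, 0.02 for Hspa5 and 0.10 for Ern1 (limma adjusted p from 0.14 to 0.78). The 3 members below every DMSO library moved away from 0, with Edem1 at −0.11 and Eif2ak3 at −0.12 (limma adjusted p 0.057 and 0.077) beside Dnajb9. Sdf2l1 had −0.22 (limma adjusted p 0.14).

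**Figure D4:**
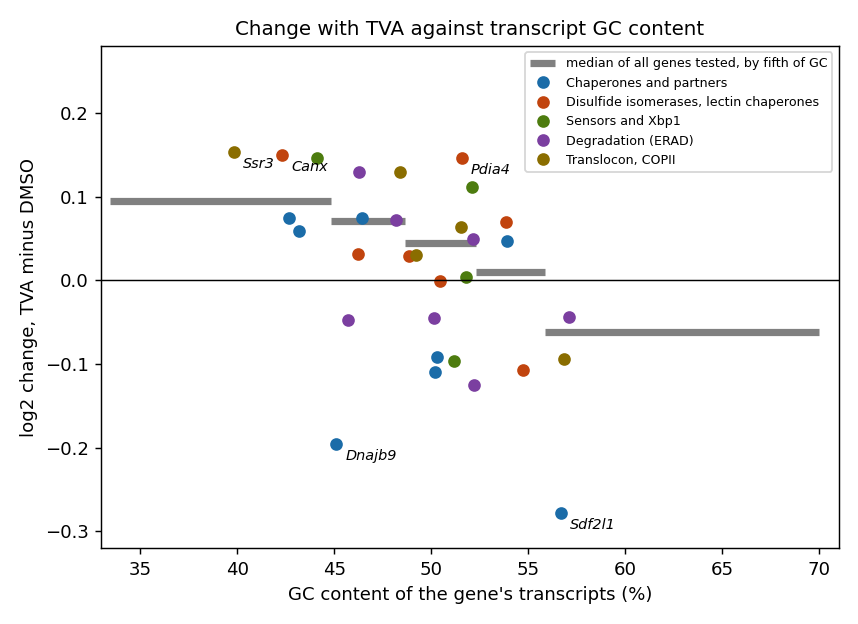
Log2 change with TVA (y axis) of the 31 members (points, coloured by role) against the GC content of their transcripts in percent (x axis); grey bars are the median change of all genes tested in each of 5 GC bins. The bars fall from 0.09 to −0.06, and Pdia4 lies above and Dnajb9 below the bar of its own bin.

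A wider set of 98 ER and secretory genes, none of them members, was read from the same fit. Of 97 tested, 6 rose and 1 fell (6.19% and 1.03%, beside 5.28% and 3.23% of all genes), and their median log2 change was 0.07, beside 0.04. The TVA libraries lay above every DMSO library for 43.3% of them and below for 5.15%, beside 27.3% and 11.2% of all genes. The other folding enzymes (16 tested, 4 higher) included Ppib (cyclophilin B, a prolyl isomerase) at 446 ± 15.01 TPM under DMSO against 497 ± 4.49 TPM under TVA, and Erp29, a thioredoxin-fold chaperone, at 147 ± 5.29 and 164 ± 1.85 TPM. Tmx1, a membrane thioredoxin, had 93.8 ± 5.53 and 108 ± 2.35 TPM, and Dnajc10, an ER reductase, 39.96 ± 1.08 and 45.1 ± 1.31 TPM. Their log2 changes were 0.16, 0.16, 0.21 and 0.17 (limma adjusted p 0.047, 0.047, 0.045 and 0.048). The other genes that rose were Sec11a of the signal peptidase (200 ± 8.79 to 226 ± 1.12 TPM, log2 change 0.18, adjusted p 0.044) and Os9, an ERAD lectin (35.01 ± 1.31 to 40.5 ± 1.04 TPM, log2 change 0.20, adjusted p 0.034). They were 1 of 14 other translocon and signal peptidase genes and 1 of 18 other ERAD genes. None of 15 glycosylation genes and none of 18 COPII and cargo genes tested was called. Each of the 6 genes that rose was called in 3 to 8 of 14 alternative fits. With median-of-ratios scaling, 1.03% of the 97 were higher and 2.06% lower, beside 2.48% and 4.53% of all genes. After a correction for GC content, the shares were 3.09% and 4.12%, beside 5.32% and 4.94%.

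Of 16 other signalling genes of the unfolded protein response, 1 fell. This was Ppp1r15a (GADD34), which brings a phosphatase to eIF2α to end the PERK response. It had 55.7, 49.04 and 48.6 TPM in the DMSO libraries, compared with 39.7, 43.3 and 42.4 TPM after TVA, with no overlap (log2 difference −0.28, SE 0.062, limma adjusted p 0.037). Atf4, the transcription factor translated under PERK activity, had 732, 710 and 730 TPM under DMSO against 758, 754 and 752 TPM under TVA. Ddit3 (CHOP), a factor induced by it, had 31.2, 26.3 and 22.1 TPM in the DMSO libraries, compared with 24.6, 24.5 and 25.5 TPM after TVA, and neither passed. The counts of these lists depended on single libraries. Without DMSO replicate 2, 18 of the 97 were higher and 3 lower (18.6% and 3.09%), where the shares of all genes also rose, to 11.3% and 9.38%. Without DMSO replicate 3, 1 was higher and 0 lower (1.03% and 0%, beside 1.32% and 1.39% of all genes). Without any one TVA library, 0 were called in either direction, and at most 0.469% of all genes were called higher and 0.681% lower.

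Exons of 9 members overlap exons on the opposite strand in GENCODE vM21, and no source used here says whether counting was stranded. Reads of the overlapping stretches therefore cannot be told apart. The overlaps with a partner expressed here included Derl2 with Mis12 (231 bases, up to 45.7 TPM), Hsp90b1 with 1810014B01Rik (270 bases, up to 14.2 TPM) and Syvn1 with Mrpl49 (91 bases, up to 80.05 TPM). The values of these genes are uncertain to that extent.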

How the data were processed

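The authors deposited one table of TPM per gene symbol with one column for each of 6 libraries. The submitters' processing notes name STAR, RSEM and mm10, and versions are not given in the sources used here. Columns were assigned by the names in the sample descriptions. TPM keep no depth, so no counting interval is given. The labels and the study's methods name different RNA extraction kits.

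Values were analysed as log2(TPM + 1), a scale that understates changes of low genes. Genes with at least 1 TPM in at least 3 libraries (10866 of 24589) entered limma (3.58.1, under R 4.3.3, with a variance trend, two-sided, Benjamini-Hochberg over all genes tested, threshold 0.05), without a replicate block. The fit was tested on simulated data.

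The members and lists were chosen with earlier results of these data known. Values in every library are given for called members, sensors, the 3 most abundant members and, added after their values were seen, others near the threshold, with DMSO outliers or called under an alternative. Of the wider lists, called genes are named; Atf4 and Ddit3 were added. GC content was the median over GENCODE vM21 transcripts (99.4% of genes tested). Protein ends were planned and not analysed here. Promoters and positions are RefSeq GRCm38.p6, the same assembly as mm10. Figures were drawn with matplotlib 3.10.9.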

Additional observations from a re-analysis of the deposited data

How the results depend on the processing

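Alternatives were a pseudocount of 0.1, all genes above 0 TPM, genes of at least 10 TPM on average, median-of-ratios and quantile scaling, no variance trend, a replicate block, GC correction (loess, span 0.5) and the omission of each library. The count of members higher with TVA, 1 in the report, was 0 after median-of-ratios or quantile scaling, without the trend and with the replicate block, and 0 to 3 with a library left out. The count lower, 0 in the report, was 1 after GC correction and 0 to 3 with a library left out. The median log2 change of the members, 0.03, was 0.0012 after median-of-ratios scaling, where that of all genes was 0.0043, and −0.0080 after GC correction, where it was 0.018. The cause of the other shifts was not tested.

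The deviations of libraries with replicate number 1, 2 or 3 correlated between the groups at 0.16, 0.03 and −0.08, and the number was not taken as a pairing. With the block the adjusted p of Pdia4 was 0.079. Over the whole table, 93 genes were higher and 125 lower with the block, and 38 to 1223 higher and 64 to 1019 lower with a library left out. Of the 97 wider genes (6 higher, 1 lower), 0 and 0 were called with the block or with all genes above 0 TPM, 1 and 2 with median-of-ratios factors, 3 and 1 with quantile scaling, 1 and 1 without the trend and 3 and 4 after GC correction. Of 432 values of single members, 401 kept direction and side of the threshold, 8 lost a call (all Pdia4), 6 gained one and 17 changed sign, none of them a called member. After GC correction these were Hsp90b1 (−0.0057), Dnajc3 (−0.018), Pdia3 (−0.028), Pdia6 (−0.012), Xbp1 (−0.012), Sec24d (−0.0080) and Syvn1 (0.016). After median-of-ratios scaling they were Pdia3 (−0.0060), Pdia6 (−0.0084) and Xbp1 (−0.034). With quantile scaling it was Xbp1 (−0.0080). With a library left out, log2 changes ran from −0.014 to 0.019 for Calr, −0.032 to 0.035 for Xbp1, −0.095 to 0.031 for Syvn1 and −0.074 to 0.011 for Derl1. Depth is unknown, so what it limits cannot be stated.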
